A study of Mus musculus with 12 samples.

Results

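The response to loss of HDAC3 was compared between CD115-CDPs and bone marrow plasmacytoid dendritic cells (BM pDCs) of the mouse. CD115-CDPs are common dendritic cell progenitors that lack CD115, the M-CSF receptor, on their surface, and BM pDCs are a mature product of dendritic cell (DC) development. The comparison used 8 of the 12 RNA-seq libraries of the series, namely 2 HDAC3-deficient and 2 control libraries of each cell type, chosen by the submitters' labels. HDAC3-deficient (KO) cells came from *Hdac3* fl/fl CreERT2 mice, whose floxed *Hdac3* exon is removed by a tamoxifen-activated Cre expressed from the *Rosa26* locus. Controls were *Hdac3* fl/fl mice without the Cre. Both genotypes were on the C57BL/6 background and both received intraperitoneal tamoxifen for 5 days, and cells were sorted 7 days later. The Cre is expressed throughout the body, so deletion was not limited to the DC lineage. Neither the age nor the sex of the mice is stated. CDPs were lysed in a buffer made for small cell numbers and pDCs in Trizol, so cell type and RNA extraction cannot be told apart when the responses are compared. Which library protocol was used for which cell type is not stated. Whether the libraries of a group derive from different animals is not stated, and each p-value measures only the spread between these libraries, which may be technical.

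HDAC3 is a histone deacetylase and serves as the enzyme of the NCoR and SMRT corepressor complexes. CDPs give rise to pDCs, the main producers of type I interferon, and to conventional DCs (cDCs), which present antigen to T cells. The pDC fate depends on the E protein encoded by *Tcf4*, whose activity is opposed by the inhibitor ID2, whereas the cDC1 subset depends on BATF3, IRF8 and ID2. The transcription factor PU.1, encoded by *Spi1*, promotes cDC development and also acts in myeloid progenitors.

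Expression was given in FPKM (fragments scaled to transcript length and to the mapped fragments of the library), in a separate table for each cell type. The tables shared 14473 gene identifiers, and 11267 of these genes reached at least 1 FPKM in at least 2 libraries of either table and were tested. A response is the difference in log2(FPKM + 0.5), HDAC3-deficient minus control, within a table. The difference of responses is the CDP response minus the pDC response, so a negative value means that the gene was lower after HDAC3 loss in CDPs relative to what happened in pDCs. Responses of genes near 0.5 FPKM are pulled toward 0 on this scale. Because the tables were normalized separately, levels were not tested across cell types.

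The pDC libraries were close to each other and the HDAC3-deficient CDP libraries were not. Across tested genes, log2(FPKM + 0.5) correlated at 0.893 between the HDAC3-deficient CDP libraries and 0.982 between the control CDP libraries, and at 0.991 between the HDAC3-deficient and 0.996 between the control pDC libraries. HDAC3-deficient CDP library 2 listed 11288 genes above 0 FPKM, against 13684 in HDAC3-deficient CDP library 1 and 14205 and 15173 in the controls. The pDC libraries listed 15286 to 15651 genes above 0. HDAC3-deficient CDP library 2 thus stood apart from the rest, and gene lists are given with and without it. Without it, 33.9% of tested genes lay above and 45.7% below both controls in CDPs, since 1 library then meets the rule alone.

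*Hdac3* itself followed the labels in both cell types. It measured 12.1 and 0.93 FPKM in HDAC3-deficient CDPs, against 58.2 and 39.6 FPKM in control CDPs. HDAC3-deficient pDCs were at 15.6 and 15.9 FPKM, against 38.9 and 37.8 FPKM in control pDCs. The pDC response was −1.26 (SE 0.08; limma, adjusted p = 8.98e-05) and the CDP response −3.52 (SE 1.03; limma, adjusted p = 0.425). The difference of responses was −2.26 (SE 1.25; limma, adjusted p = 0.383) and was −0.69 without HDAC3-deficient CDP library 2. The FPKM covers the whole gene and not the floxed exon alone, so it does not measure the share of cells with the deletion.

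Markers of the sorted cells were present. The pDC marker *Siglech* measured 945 and 855 FPKM in HDAC3-deficient pDCs and 1903 and 1951 FPKM in control pDCs, against 25.8 and 14.9 FPKM in HDAC3-deficient CDPs and 178 and 93.3 FPKM in control CDPs. *Flt3*, the receptor for the main DC growth factor, stood at 333 and 217 FPKM in HDAC3-deficient CDPs and 352 and 310 FPKM in control CDPs. *Csf1r*, which encodes CD115, was nevertheless transcribed in these CD115-CDPs, at 64.7 and 21.5 FPKM in HDAC3-deficient and 139 and 95.3 FPKM in control libraries. Of the other cell types a gate could hold, the summed FPKM of 10 T and NK cell genes was 29.3 and 31.6 in HDAC3-deficient pDCs and 30.7 and 29.8 in control pDCs. The erythroid list of 11 genes summed to 897 and 325 FPKM in HDAC3-deficient pDCs, against 415 and 552 FPKM in control pDCs, so its groups overlapped. Even so, 4 of its genes rose and 1 fell in pDCs (limma), beside 17.2% and 32.8% of all tested genes. Late granule genes, which mark neutrophils, summed over 12 genes to 35.6 and 72.2 FPKM in HDAC3-deficient pDCs and 51.7 and 52.8 FPKM in control pDCs. In CDPs the same list summed to 274 and 152 FPKM in HDAC3-deficient and 603 and 226 FPKM in control libraries. The B-cell list of 11 genes summed to 312 and 318 FPKM in HDAC3-deficient pDCs, against 163 and 177 FPKM in control pDCs, and to 784 and 542 FPKM in HDAC3-deficient CDPs, against 852 and 572 FPKM in control CDPs. Without *Cd22* the pDC sums were 132 and 129 FPKM in HDAC3-deficient and 156 and 171 FPKM in control libraries. The summed level of 14 monocyte and macrophage genes was higher after HDAC3 loss in both cell types, at 911 and 854 FPKM in HDAC3-deficient CDPs against 627 and 472 FPKM in control CDPs, and at 269 and 331 FPKM in HDAC3-deficient pDCs against 242 and 216 FPKM in control pDCs. In CDPs the sums overlapped without *Lyz2*, at 404 and 407 FPKM in HDAC3-deficient and 436 and 391 FPKM in control libraries. In pDCs they overlapped without *Ccr2*, at 171 and 216 FPKM in HDAC3-deficient and 204 and 182 FPKM in control libraries. *Lyz2* and *Ccr2* were chosen after their values were seen. The part of these cells in the results was not tested, and in bulk samples fewer cells of a type and less RNA per cell cannot be told apart.

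Most called differences of responses were toward lower expression in CDPs relative to pDCs. The difference was called (limma on all 8 libraries, adjusted p under 0.05) for 163 genes (1.45%). Of these, 144 (1.28% of those tested) had the more negative and 19 (0.169%) the more positive response in CDPs. In pDCs alone, limma called 1939 genes higher (17.2%) and 3691 lower (32.8%) in HDAC3-deficient cells. In CDPs alone it called 0 genes in either direction (0%), with 1058 genes at an unadjusted p under 0.05 and a smallest adjusted p of 0.129. Rescaling each library by its median ratio shifted the median response of all genes, −0.17 in CDPs and −0.14 in pDCs, by 0.11 and 0.13, and split the pDC calls into 2602 higher and 2650 lower. edgeR on the expected counts of the pDC table gave 2753 higher and 2858 lower among 12716 genes tested. Quantile normalization gave 63 more positive and 213 more negative differences of responses.

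The number of calls depended on single libraries. Leaving out HDAC3-deficient CDP library 1 gave 6197 calls and leaving out HDAC3-deficient CDP library 2 gave 2601, where the single remaining library is assumed to vary like the other groups. Both sets held all 163 genes. Leaving out control CDP library 1 or 2, HDAC3-deficient pDC library 1 or 2, or control pDC library 1 or 2 gave 0 calls in each case (limma), with 1126 to 1690 genes at an unadjusted p under 0.05. The direction of all 163 differences was the same in each of these 8 fits. These genes were selected by the test on the same libraries, with differences of at least 1.22 in size. A change of direction was thus unlikely from the start, and its absence is no separate evidence.

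**Figure D1:**
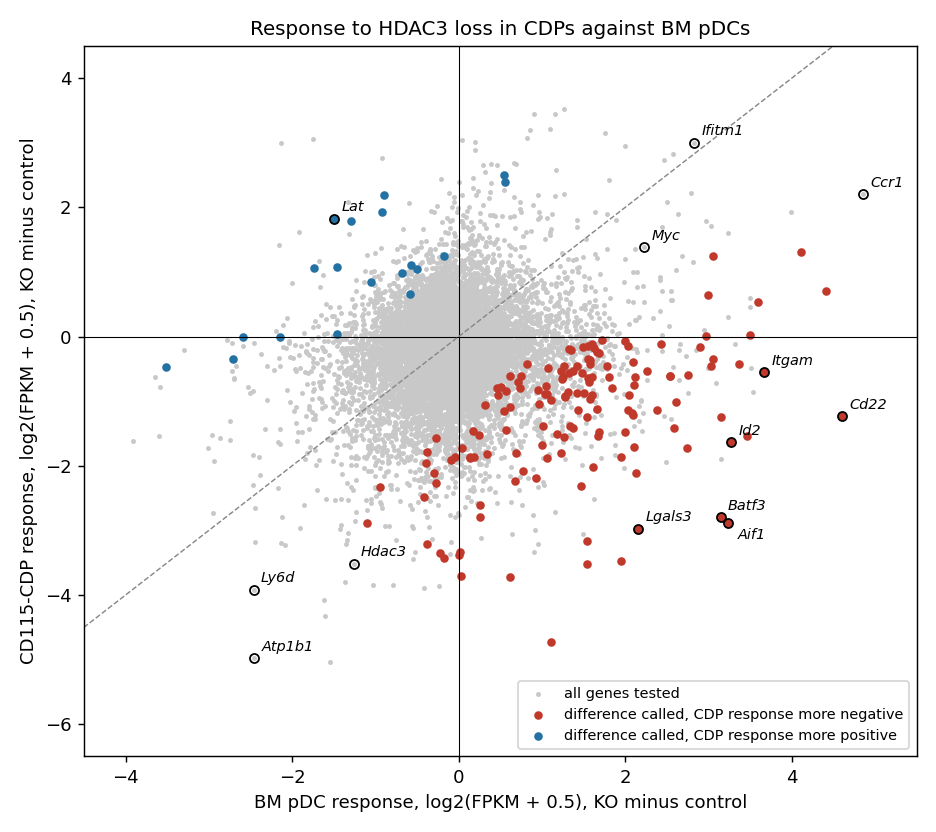
Response to HDAC3 loss of each tested gene in CD115-CDPs (vertical axis) against BM pDCs (horizontal axis), both as HDAC3-deficient minus control in log2(FPKM + 0.5). Grey points are the 11267 genes tested, red and blue points the 144 and 19 genes whose difference of responses was called, the dashed line marks equal responses, and most red points lie in the lower right, with *Batf3*, *Id2*, *Aif1*, *Lgals3* and *Cd22* among them.

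Genes were also sorted by a rule without a test, namely whether both HDAC3-deficient libraries lay beyond both controls. A gene tested through 1 table could meet the rule in the other with values near 0 FPKM. In CDPs, 14.5% of tested genes lay above and 28.7% below both controls, and in pDCs 27.4% lay above and 50.8% below. Both tables met the rule for 3869 genes, of which 2427 (62.7%) moved alike and 1442 (37.3%) moved in opposite directions. Since both tables leaned lower, responses without any link would also give more alike than opposite genes. With 2 libraries against 2, genes also meet the rule by chance. Whether the 62.7% exceeds these effects was not tested. Genes lower in both cell types numbered 1885 (16.7% of tested genes), and genes higher in both 542 (4.81%). The opposite classes held 762 genes lower in CDPs and higher in pDCs (6.76%) and 680 genes higher in CDPs and lower in pDCs (6.04%). With median ratio scaling, the alike genes split into 964 higher and 1265 lower. Most of these responses were small. When both responses had to reach 1 on the log2 scale, 166 genes were lower in both, 50 higher in both, 83 lower in CDPs and higher in pDCs, and 11 higher in CDPs and lower in pDCs. Across all tested genes the 2 responses correlated at r = 0.13, a description over genes, which are not independent replicates. The value was 0.22 without HDAC3-deficient CDP library 2.

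*Batf3*, the cDC1 transcription factor, measured 2.65 and 3.25 FPKM in HDAC3-deficient CDPs, against 23.4 and 23.2 FPKM in control CDPs. In pDCs it measured 4.84 and 7.17 FPKM in HDAC3-deficient cells, against 0.08 and 0.4 FPKM in controls. The groups did not overlap in either cell type and the order of the groups was turned round. The CDP response was −2.79 and the pDC response 3.15, with a difference of −5.94 (SE 0.45; limma, adjusted p = 0.0158). *Id2*, which encodes the inhibitor of E proteins, measured 40.8 and 31.7 FPKM in HDAC3-deficient CDPs against 104 and 121 FPKM in control CDPs, and 59.6 and 103 FPKM in HDAC3-deficient pDCs against 7.54 and 7.77 FPKM in control pDCs. Its responses were −1.63 in CDPs and 3.27 in pDCs, and their difference was −4.90 (SE 0.39; limma, adjusted p = 0.0158). *Zbtb46*, a factor that marks the cDC lineage, had 0.74 and 3.11 FPKM in HDAC3-deficient CDPs against 4.4 and 4.88 FPKM in control CDPs, and 8.87 and 11.97 FPKM in HDAC3-deficient pDCs against 1.46 and 1.23 FPKM in control pDCs. The HDAC3-deficient CDP libraries lay far from each other here, and the difference of responses of −3.83 (SE 0.70) did not pass (limma, adjusted p = 0.0574). It was −4.60 without HDAC3-deficient CDP library 2.

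**Figure D2:**
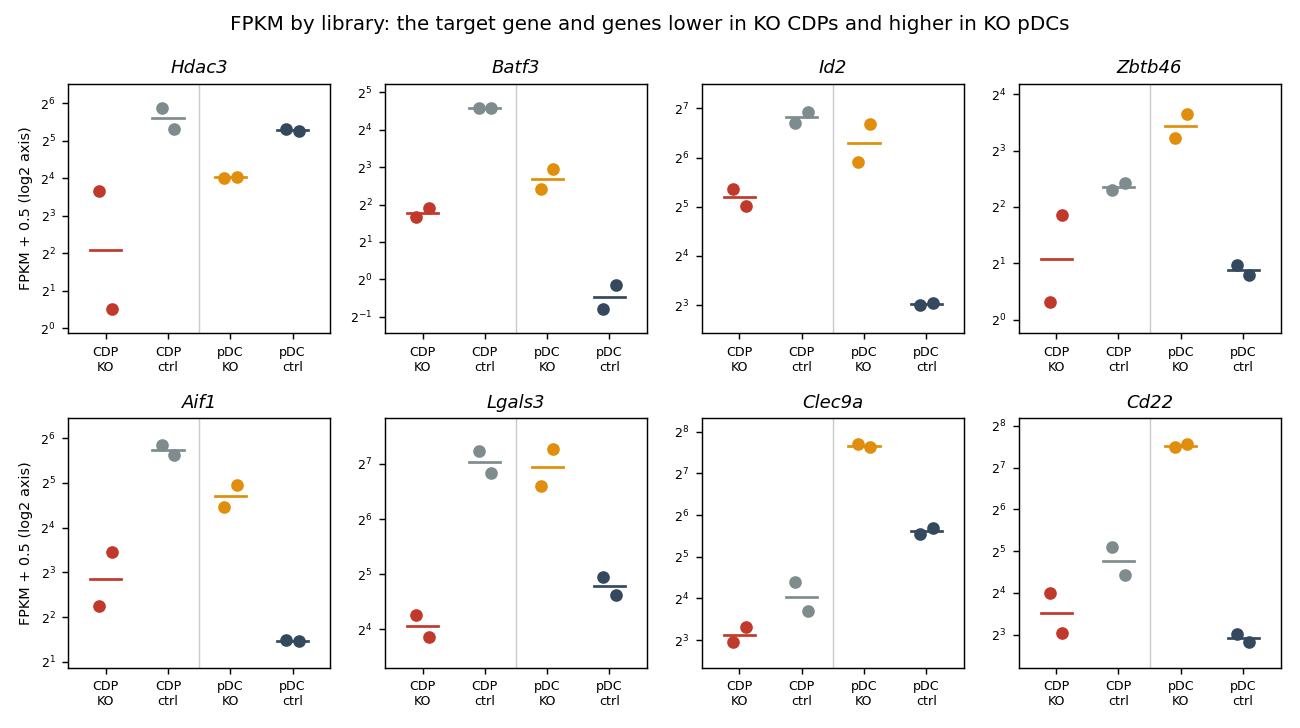
FPKM + 0.5 on a log2 axis for *Hdac3* and 7 genes lower in HDAC3-deficient CDPs and higher in HDAC3-deficient pDCs, 1 point per library, with the mean of the log2 values as a line. From left to right stand HDAC3-deficient CDPs, control CDPs, HDAC3-deficient pDCs and control pDCs, and in each panel but that of *Hdac3* HDAC3-deficient CDPs lie below their controls and HDAC3-deficient pDCs above theirs, as for *Batf3* at 2.65 and 3.25 FPKM against 23.4 and 23.2 FPKM in CDPs.

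The start sites of 3 such genes are shown for orientation, since a short PU.1 core, GAGGAA, was looked for before them on both strands. The sequences are the 250 bases before the RefSeq start site in GRCm38.p6, written 5′ to 3′ on the strand of the gene, and capitals mark a match to the core on either strand.
*Batf3* (chr1:191098164-191098413, plus strand): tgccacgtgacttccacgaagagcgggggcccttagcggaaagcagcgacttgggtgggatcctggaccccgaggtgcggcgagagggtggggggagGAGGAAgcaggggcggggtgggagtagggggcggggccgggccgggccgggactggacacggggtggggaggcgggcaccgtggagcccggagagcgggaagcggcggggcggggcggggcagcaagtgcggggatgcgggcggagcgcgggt
*Aif1* (chr17:35176053-35176302, minus strand): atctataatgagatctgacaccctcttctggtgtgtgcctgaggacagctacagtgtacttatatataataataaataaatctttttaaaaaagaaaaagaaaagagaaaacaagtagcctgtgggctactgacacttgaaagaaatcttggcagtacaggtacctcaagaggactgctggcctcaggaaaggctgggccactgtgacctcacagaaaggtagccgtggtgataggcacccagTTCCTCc
*Id2* (chr12:25096093-25096342, minus strand): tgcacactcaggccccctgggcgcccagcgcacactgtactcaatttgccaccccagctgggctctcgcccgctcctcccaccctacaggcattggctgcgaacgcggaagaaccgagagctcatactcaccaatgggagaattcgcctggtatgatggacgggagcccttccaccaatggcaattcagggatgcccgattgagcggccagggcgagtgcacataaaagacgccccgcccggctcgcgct
*Batf3* and *Aif1* had 1 match each and *Id2* had 0. A gene held a motif where any of its windows did, so genes with more windows had more bases searched. Shares of genes and of single windows are therefore unlike units. The core occurred in 38.4% of the 112 genes with a more negative called difference that had a window, against 25.7% of the 9168 tested genes with one and 23.3% of all 32851 windows. It occurred in 29.3% of genes lower in CDPs and higher in pDCs, 25.5% of genes higher in CDPs and lower in pDCs, 30% of genes higher in both and 25.6% of genes lower in both. A second motif, the AP-1 core TGANTCA, had 0 matches in these 3 windows and occurred in 7.14% of the called genes with a window, against 5.21% of tested genes with one. Its share was largest in genes higher in both, at 9.01%, and was 4.53% in genes lower in both. The opposite classes had 5.31% (lower in CDPs and higher in pDCs) and 5.04% (higher in CDPs and lower in pDCs). A match is only a description of these letters and does not show binding.

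Of 20 genes on the cDC1 list, 17 were tested, and 15 of these lay below both controls in CDPs and 0 above, also without HDAC3-deficient CDP library 2. Among all tested genes 28.7% lay below and 14.5% above, or 45.7% and 33.9% without that library. In pDCs 9 rose and 4 fell (limma), beside 17.2% and 32.8% of all tested genes. Lower in CDPs and higher in pDCs were 10 of the 17, and 5 were lower in both, beside 6.76% and 16.7% of all tested genes. Some of these members were near 0 FPKM in CDPs or in pDCs. *Gcsam*, counted among the 10, had 0.16 and 0.31 FPKM in HDAC3-deficient pDCs against 0 and 0.02 FPKM in control pDCs. *Cd36*, among the 5, did not exceed 0.25 FPKM in CDPs. The median response was −1.40 in CDPs and 0.52 in pDCs, beside −0.17 and −0.14 over all genes tested, and the median difference of −2.22 was −1.48 without HDAC3-deficient CDP library 2. A more negative difference was called for 6 members, beside 1.28% of all tested genes. *Ifi205*, an interferon-inducible gene whose family members are similar in sequence and may share reads, had 2.89 and 0.67 FPKM in HDAC3-deficient CDPs against 55.0 and 49.8 FPKM in control CDPs, and 5.67 and 8.4 FPKM in HDAC3-deficient pDCs against 2.99 and 2.87 FPKM in control pDCs (difference −5.84). *Clec9a*, the receptor for dead cells on cDC1, stood at 7.25 and 9.43 FPKM in HDAC3-deficient CDPs against 20.4 and 12.5 FPKM in control CDPs. In pDCs it was at 208 and 196 FPKM in HDAC3-deficient cells against 46.3 and 51.2 FPKM in controls. Its difference of responses was −2.95 (SE 0.36; limma, adjusted p = 0.0207). *Zfp366*, which encodes the cDC1 regulator DC-SCRIPT, was at 0.31 and 0 FPKM in HDAC3-deficient CDPs against 2.13 and 1.56 FPKM in control CDPs, and at 1.44 and 1.66 FPKM in HDAC3-deficient pDCs against 0.02 and 0.04 FPKM in control pDCs. All 8 values are low, and the difference was −3.82 (limma, adjusted p = 0.0189). *Rab7b*, a regulator of endosomal traffic, had a difference of −3.35. *Zfp366*, *Clec9a*, *Rab7b*, *Gcsam* and *Cd36* were chosen after their values were seen.

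Not every cDC1 regulator followed. *Irf8*, which both pDCs and cDC1 need, was at 864 and 318 FPKM in HDAC3-deficient CDPs against 1696 and 1331 FPKM in control CDPs. In pDCs it was at 1639 and 1677 FPKM in HDAC3-deficient cells against 1952 and 1853 FPKM in controls, a response of −0.20 that did not pass (limma, adjusted p = 0.197). The difference of −1.32 was not called (limma, adjusted p = 0.31). *Cadm1*, an adhesion molecule of cDC1, was lower in both. It had 0.16 and 0 FPKM in HDAC3-deficient CDPs against 1.7 and 1.16 FPKM in control CDPs, and 1.17 and 0.36 FPKM in HDAC3-deficient pDCs against 9.86 and 8.52 FPKM in control pDCs, where it fell by 3.01 on the log2 scale (limma, adjusted p = 0.000344). *Cadm1* was chosen after its values were seen. *Xcr1*, the cDC1 chemokine receptor, did not exceed 0.85 FPKM in any of the 8 libraries. *Spi1* had 292 and 137 FPKM in HDAC3-deficient CDPs against 381 and 314 FPKM in control CDPs, and 118 and 176 FPKM in HDAC3-deficient pDCs against 58.1 and 46.4 FPKM in control pDCs. It rose in pDCs by 1.47 (limma, adjusted p = 0.00103), and the difference of −2.26 missed the threshold (limma, adjusted p = 0.0907).

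*Aif1*, an actin-bundling protein of macrophages and DCs, had the most negative value of the 163. It measured 4.26 and 10.5 FPKM in HDAC3-deficient CDPs against 56.9 and 49.1 FPKM in control CDPs, and 21.7 and 30.6 FPKM in HDAC3-deficient pDCs against 2.3 and 2.26 FPKM in control pDCs, with a difference of −6.12 (SE 0.56; limma, adjusted p = 0.0169). *Lgals3*, which encodes galectin-3, had 18.6 and 13.95 FPKM in HDAC3-deficient CDPs against 150 and 113 FPKM in control CDPs. In pDCs it had 96.8 and 154 FPKM in HDAC3-deficient cells against 30.4 and 24.2 FPKM in controls. Its difference was −5.13. For *Cd22*, a sialic acid-binding inhibitory receptor of B cells and DCs, most of the difference came from pDCs, at 180 and 189 FPKM in HDAC3-deficient cells against 7.63 and 6.58 FPKM in controls. CDPs had 15.6 and 7.71 FPKM in HDAC3-deficient against 33.7 and 21.0 FPKM in control libraries, and the difference was −5.84. The adhesion molecule *L1cam* had 0.46 and 0.08 FPKM in HDAC3-deficient CDPs against 7.04 and 8.61 FPKM in control CDPs, and 24.9 and 31.3 FPKM in HDAC3-deficient pDCs against 8.16 and 5.78 FPKM in control pDCs. The kinase *Pak1* and the actin-associated *Palld* had differences of −4.24 and −4.48. *Plbd1*, *Tmem51* and *Cd300lg* had differences of −4.70, −5.00 and −5.07. Each of these genes was lower in HDAC3-deficient than control CDPs and higher in HDAC3-deficient than control pDCs. *Sema4a*, a semaphorin of DCs, was at 38.6 and 5.33 FPKM in HDAC3-deficient CDPs against 62.5 and 49.5 FPKM in control CDPs, and its difference of −5.04 was not called (limma, adjusted p = 0.0769; −3.67 without HDAC3-deficient CDP library 2).

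*Itgam*, which encodes the integrin CD11b, had 43.8 and 55.0 FPKM in HDAC3-deficient pDCs against 4.08 and 2.8 FPKM in control pDCs, and overlapped in CDPs, at 21.4 and 14.5 FPKM in HDAC3-deficient against 31.9 and 21.1 FPKM in control libraries. Its difference was −4.22. *Ccr7*, the receptor for lymph node homing, rose in pDCs to 16.3 and 18.3 FPKM against 2.01 and 1.54 FPKM in controls, while CDPs had 61.9 and 37.1 FPKM in HDAC3-deficient and 53.3 and 42.5 FPKM in control libraries (difference −2.97). *Cx3cr1*, the fractalkine receptor, had 11.2 and 13.1 FPKM in HDAC3-deficient CDPs against 42.0 and 37.9 FPKM in control CDPs, and 5.54 and 8.68 FPKM in HDAC3-deficient pDCs against 4.2 and 2.47 FPKM in control pDCs (difference −2.67; limma, adjusted p = 0.046). *Csf1r* moved the same way, to 11.5 and 14.3 FPKM in HDAC3-deficient pDCs against 7.72 and 4.79 FPKM in control pDCs, with an uncalled difference of −2.62 (limma, adjusted p = 0.118). *Egr1*, an immediate early transcription factor, was at 4.57 and 2.23 FPKM in HDAC3-deficient CDPs against 10.2 and 10.6 FPKM in control CDPs, and at 29.9 and 41.4 FPKM in HDAC3-deficient pDCs against 10.4 and 10.9 FPKM in control pDCs (difference −3.22). Of 21 immediate early genes tested, 12 rose and 2 fell in pDCs, and 7 lay below and 1 above both controls in CDPs. Among all tested genes 17.2% rose and 32.8% fell in pDCs. In CDPs 28.7% of all tested genes lay below and 14.5% above, so the count below was near the share of all genes. Without HDAC3-deficient CDP library 2 the CDP counts were 7 below and 9 above, beside 45.7% and 33.9% of all tested genes. The median CDP response of the list was then 0.08 in place of −0.42.

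MHC class II genes, which carry antigen for presentation to CD4+ T cells, were lower in CDPs and mostly level in pDCs. All 10 listed genes were tested. In CDPs 9 lay below both controls and 0 above, and in pDCs 3 rose and 0 fell. Among all tested genes 28.7% lay below and 14.5% above in CDPs, and 17.2% rose and 32.8% fell in pDCs. The median response of the list was −1.38 in CDPs and 0.14 in pDCs. Its median difference was −1.82, or −1.63 without HDAC3-deficient CDP library 2. Without that library 9 lay below and 1 above in CDPs, beside 45.7% and 33.9% of all tested genes. *H2-Ab1*, a chain of the I-A molecule, had 87.9 and 78.4 FPKM in HDAC3-deficient CDPs against 318 and 309 FPKM in control CDPs, and 851 and 735 FPKM in HDAC3-deficient pDCs against 844 and 845 FPKM in control pDCs. The CDP libraries separated clearly, whereas the pDC groups overlapped. Its difference was −1.82 (SE 0.22; limma, adjusted p = 0.0189). *H2-Aa* and *H2-Eb1* had differences of −1.99 and −1.82. *H2-Ob*, a chain of the peptide-editing regulator H2-O, had 39.6 and 41.7 FPKM in HDAC3-deficient CDPs against 75.7 and 51.6 FPKM in control CDPs, and rose to 33.8 and 42.7 FPKM in HDAC3-deficient pDCs against 6.75 and 5.56 FPKM in control pDCs (difference −3.15). *H2-DMb2*, whose reads may be shared with the near-identical *H2-DMb1*, also had a difference of −3.15. *Ciita*, the master regulator of these genes, was at 2.21 and 0.8 FPKM in HDAC3-deficient CDPs against 4.89 and 5.81 FPKM in control CDPs, and at 15.1 and 13.6 FPKM in HDAC3-deficient pDCs against 9.9 and 10.1 FPKM in control pDCs. Its difference of −2.13 was not called (limma, adjusted p = 0.0934). The invariant chain gene *Cd74* had an uncalled difference of −1.33 (limma, adjusted p = 0.0967). *H2-Ab1* and *H2-Eb1* were chosen after their values were seen, as was *Cd74*.

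Cell cycle genes rose in pDCs, and CDPs had no such shift in their medians. All 22 mitosis genes were called higher in HDAC3-deficient pDCs, and 25 of 30 DNA replication genes rose there with 0 falling. Among all tested genes 17.2% rose and 32.8% fell in pDCs. In CDPs 7 mitosis genes lay below and 1 above both controls, and 7 replication genes lay below and 4 above. The counts below were near the share of all tested genes, of which 28.7% lay below and 14.5% above in CDPs. Without HDAC3-deficient CDP library 2 the counts were 13 below and 3 above for mitosis genes, and 11 below and 9 above for replication genes. The shares of all tested genes were then 45.7% below and 33.9% above. Median responses were −0.18 in CDPs and 1.34 in pDCs for mitosis genes, and −0.13 in CDPs and 0.88 in pDCs for replication genes. The CDP medians were −0.32 and −0.03 without that library. Summed over the 22 mitosis genes, CDPs held 1512 and 1572 FPKM in HDAC3-deficient against 1527 and 1963 FPKM in control libraries, while pDCs held 1184 and 1209 FPKM in HDAC3-deficient against 435 and 415 FPKM in control libraries. The difference of responses was negative for all 22 and called for 5 of them, *Birc5*, *Ccnb2*, *Ccna2*, *Aurkb* and *Tpx2*, at −1.89, −1.89, −1.77, −1.73 and −1.55. A more negative difference was called for 1.28% of all tested genes. *Birc5*, which encodes survivin, had 195 and 176 FPKM in HDAC3-deficient CDPs against 207 and 230 FPKM in control CDPs, and 114 and 122 FPKM in HDAC3-deficient pDCs against 38.2 and 35.8 FPKM in control pDCs. The replication genes with a called difference were the ligase gene *Lig1* (−1.90), *Mcm10* (−1.70) and the helicase subunit *Mcm5* (−1.53). *Ccnd2*, a cyclin of the G1 phase, had 142 and 161 FPKM in HDAC3-deficient CDPs against 147 and 190 FPKM in control CDPs, and 22.4 and 23.9 FPKM in HDAC3-deficient pDCs against 5.36 and 5.15 FPKM in control pDCs. Its difference was −2.18 (limma, adjusted p = 0.0176). *Cdkn1a*, which encodes the CDK inhibitor p21, was higher in both, at 157 and 142 FPKM in HDAC3-deficient CDPs against 66.6 and 58.8 FPKM in control CDPs, and at 30.4 and 39.6 FPKM in HDAC3-deficient pDCs against 3.62 and 3.84 FPKM in control pDCs. The pDC response of 3.06 exceeded the CDP response of 1.25 (difference −1.81; limma, adjusted p = 0.0357). The 5 named mitosis genes and *Mcm5* were chosen after their values were seen.

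The 19 genes with a more positive response in CDPs mostly lay above both controls in CDPs (14) and below both in pDCs (17). *Lat*, an adaptor of lymphocyte receptor signaling, had 27.2 and 32.2 FPKM in HDAC3-deficient CDPs against 10.1 and 6.33 FPKM in control CDPs. In pDCs it had 1.7 and 2.03 FPKM in HDAC3-deficient cells against 5.91 and 6.42 FPKM in controls. The difference of 3.32 (SE 0.39; limma, adjusted p = 0.0189) was the most positive of the 19. *Slco3a1*, an organic anion transporter, had 7.31 and 9.23 FPKM in HDAC3-deficient CDPs against 1.78 and 2.32 FPKM in control CDPs, and 6.46 and 5.63 FPKM in HDAC3-deficient pDCs against 15.8 and 15.3 FPKM in control pDCs (difference 3.08). *Mgst1*, a microsomal glutathione transferase of early granulocytes, had 23.4 and 31.1 FPKM in HDAC3-deficient CDPs against 5.88 and 5.11 FPKM in control CDPs, and 2.48 and 1.23 FPKM in HDAC3-deficient pDCs against 3.66 and 3.83 FPKM in control pDCs. Its difference was 3.10. *Mcpt8*, a basophil protease, and *Laptm4b*, a lysosomal membrane protein, had differences of 2.86 and 2.54. Biosynthetic genes were among the others. *Srm*, which encodes spermidine synthase, had 277 and 238 FPKM in HDAC3-deficient CDPs against 118 and 132 FPKM in control CDPs, and 19.4 and 16.1 FPKM in HDAC3-deficient pDCs against 26.0 and 24.3 FPKM in control pDCs (difference 1.54). The nucleolar gene *Gnl3*, the glutamine synthetase gene *Glul* and the mitochondrial chaperonin gene *Hspe1* had differences of 1.68, 1.66 and 1.25. *Spns3* differed through pDCs, where it fell by 1.46 on the log2 scale, with a difference of 1.5. *Tsc22d3*, a target of glucocorticoids, and *Clec2i* were higher in both cell types and more so in CDPs, with differences of 1.96 and 1.83. *Tsc22d3* had 151 and 139 FPKM in HDAC3-deficient CDPs against 27.7 and 22.7 FPKM in control CDPs, and 330 and 370 FPKM in HDAC3-deficient pDCs against 238 and 239 FPKM in control pDCs. *Mgst1* was chosen after its values were seen.

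**Figure D3:**
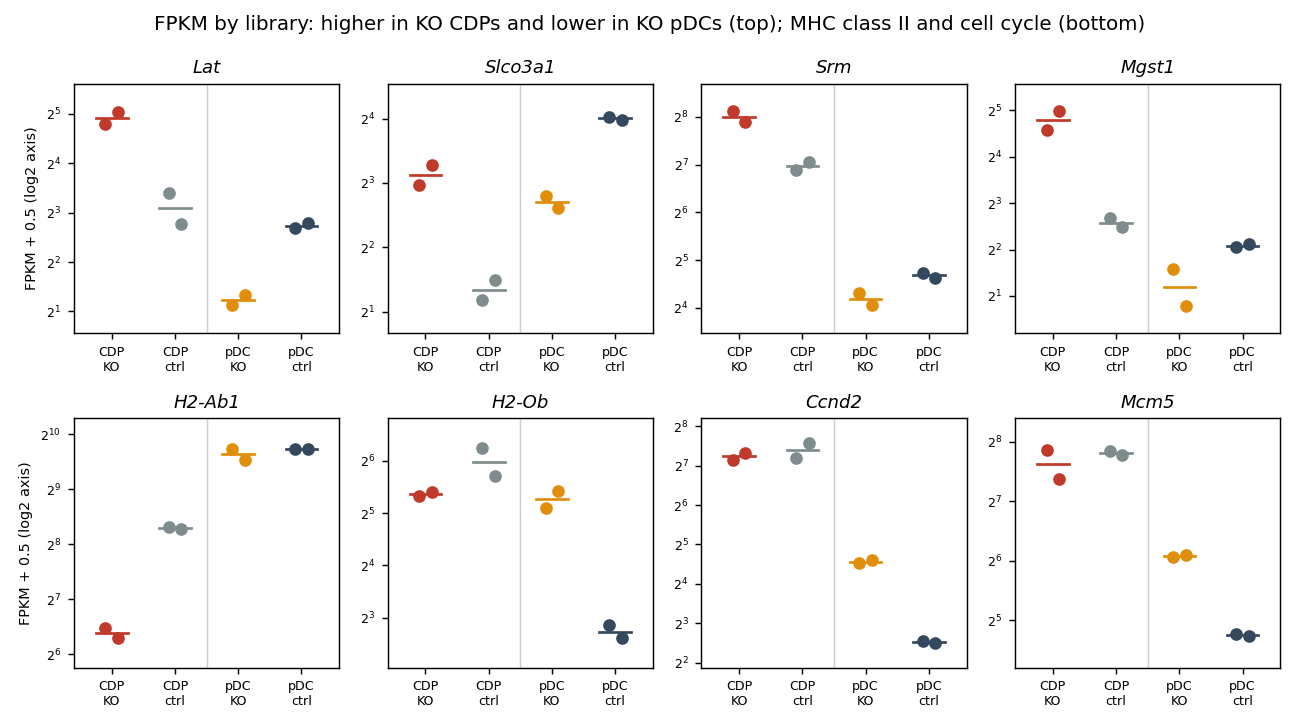
FPKM + 0.5 on a log2 axis for 4 genes higher in HDAC3-deficient CDPs and lower in HDAC3-deficient pDCs (top row) and for MHC class II and cell cycle genes (bottom row), 1 point per library, with the mean of the log2 values as a line and groups from left to right as HDAC3-deficient CDPs, control CDPs, HDAC3-deficient pDCs and control pDCs. *H2-Ab1* separates in CDPs and overlaps in pDCs, while *Ccnd2* overlaps in CDPs and separates in pDCs at 22.4 and 23.9 FPKM against 5.36 and 5.15 FPKM.

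Genes of the pDC program were lower in both cell types. Of 30 pDC genes, all tested, 24 lay below and 0 above both controls in CDPs, and in pDCs 22 fell and 1 rose. Among all tested genes 28.7% lay below and 14.5% above in CDPs, and 32.8% fell and 17.2% rose in pDCs. Without HDAC3-deficient CDP library 2, 25 lay below and 2 above in CDPs, beside 45.7% and 33.9% of all tested genes. Lower in both were 20 of the 30, set against 16.7% of all genes tested. Some of the 24 were near 0 FPKM in CDPs and were tested through the pDC table alone. *Klk1* had 0 and 0 FPKM in HDAC3-deficient CDPs against 0.16 and 0.76 FPKM in control CDPs. *Cd209d* had 0.09 and 0 FPKM in HDAC3-deficient CDPs against 0.62 and 0.1 FPKM in control CDPs. The median response was −1.40 in CDPs and −0.63 in pDCs. *Ly6d*, a surface marker of pDCs and their precursors, had 31.3 and 36.0 FPKM in HDAC3-deficient CDPs against 577 and 460 FPKM in control CDPs, and 308 and 277 FPKM in HDAC3-deficient pDCs against 1513 and 1721 FPKM in control pDCs. The pDC response was −2.46 (SE 0.11; limma, adjusted p = 4.22e-05) and the CDP response −3.92 (SE 0.24; limma, adjusted p = 0.129), the smallest adjusted p in CDPs. *Siglech* was lower by the values given above, with responses of −2.68 in CDPs and −1.10 in pDCs. *Tcf4* was at 32.9 and 49.9 FPKM in HDAC3-deficient CDPs against 58.3 and 69.8 FPKM in control CDPs, and at 177 and 143 FPKM in HDAC3-deficient pDCs against 241 and 261 FPKM in control pDCs. Its response was −0.65 in CDPs and −0.66 in pDCs, where it passed the test (limma, adjusted p = 0.00337). *Bst2*, the pDC antigen PDCA-1, had responses of −1.52 in CDPs and −0.82 in pDCs, and *Ly6c2*, whose reads may be shared with *Ly6c1*, responses of −3.15 and −1.35. *Upb1* was an exception among listed pDC genes. It was at 6.51 and 9.16 FPKM in HDAC3-deficient CDPs against 33.5 and 26.0 FPKM in control CDPs, and at 93.0 and 92.1 FPKM in HDAC3-deficient pDCs against 79.3 and 84.0 FPKM in control pDCs, with a called difference of −2.05. *Siglech*, *Tcf4*, *Bst2*, *Ly6c2*, *Klk1* and *Cd209d* were chosen after their values were seen.

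Further genes lower in both cell types had other roles. *Il7r*, the interleukin-7 receptor, had 1.64 and 2.75 FPKM in HDAC3-deficient CDPs against 14.9 and 10.5 FPKM in control CDPs, and 19.2 and 11.2 FPKM in HDAC3-deficient pDCs against 82.3 and 84.1 FPKM in control pDCs. Its responses were −2.30 in CDPs and −2.47 in pDCs. *Nrp1*, a co-receptor of semaphorins, had 1.46 and 3.65 FPKM in HDAC3-deficient CDPs against 17.9 and 17.2 FPKM in control CDPs, and 5.77 and 2.71 FPKM in HDAC3-deficient pDCs against 23.4 and 24.5 FPKM in control pDCs. *Atp1b1*, a subunit of the sodium pump that marks pDCs, was at 0.55 and 0 FPKM in HDAC3-deficient CDPs against 25.8 and 19.5 FPKM in control CDPs, and at 76.2 and 41.0 FPKM in HDAC3-deficient pDCs against 319 and 300.2 FPKM in control pDCs. *Cnn3*, an actin-binding calponin, had responses of −3.20 in CDPs and −2.13 in pDCs. The pDC response of each of the 4 genes passed the test, with limma adjusted p-values of 0.000233, 0.000618, 0.00041 and 7.17e-05.

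*Ifitm1*, an antiviral membrane protein, had 1041 and 821 FPKM in HDAC3-deficient CDPs against 92.4 and 143 FPKM in control CDPs, and 16.4 and 23.9 FPKM in HDAC3-deficient pDCs against 2.35 and 2.37 FPKM in control pDCs. Its responses were 3.0 in CDPs and 2.83 in pDCs (limma for pDCs, adjusted p = 8.98e-05). *Serpina3g*, a protease inhibitor, had 125 and 141 FPKM in HDAC3-deficient CDPs against 16.2 and 17.2 FPKM in control CDPs, and 16.1 and 19.8 FPKM in HDAC3-deficient pDCs against 4.01 and 4.16 FPKM in control pDCs. The cytokine gene *Ltb* (lymphotoxin-beta) had 41.9 and 41.1 FPKM in HDAC3-deficient CDPs against 9.35 and 7.74 FPKM in control CDPs, and 26.5 and 35.9 FPKM in HDAC3-deficient pDCs against 3.79 and 4.25 FPKM in control pDCs. Both members of each pair of HDAC3-deficient libraries lay well above both controls for these 3 genes. *Ccr1*, a chemokine receptor of myeloid cells, had responses of 2.21 in CDPs and 4.86 in pDCs, and *Ccl5*, a chemokine ligand of that family, responses of 2.08 and 2.50. The mTOR inhibitor gene *Ddit4*, the metallothionein gene *Mt1* and the glutathione transferase gene *Gstm1* had responses of 2.73, 3.16 and 1.80 in CDPs and 2.47, 1.76 and 1.90 in pDCs. *Myc*, a driver of cell growth chosen after its values were seen, was at 405 and 303 FPKM in HDAC3-deficient CDPs against 115 and 155 FPKM in control CDPs, and at 14.6 and 15.0 FPKM in HDAC3-deficient pDCs against 2.63 and 2.9 FPKM in control pDCs.

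**Figure D4:**
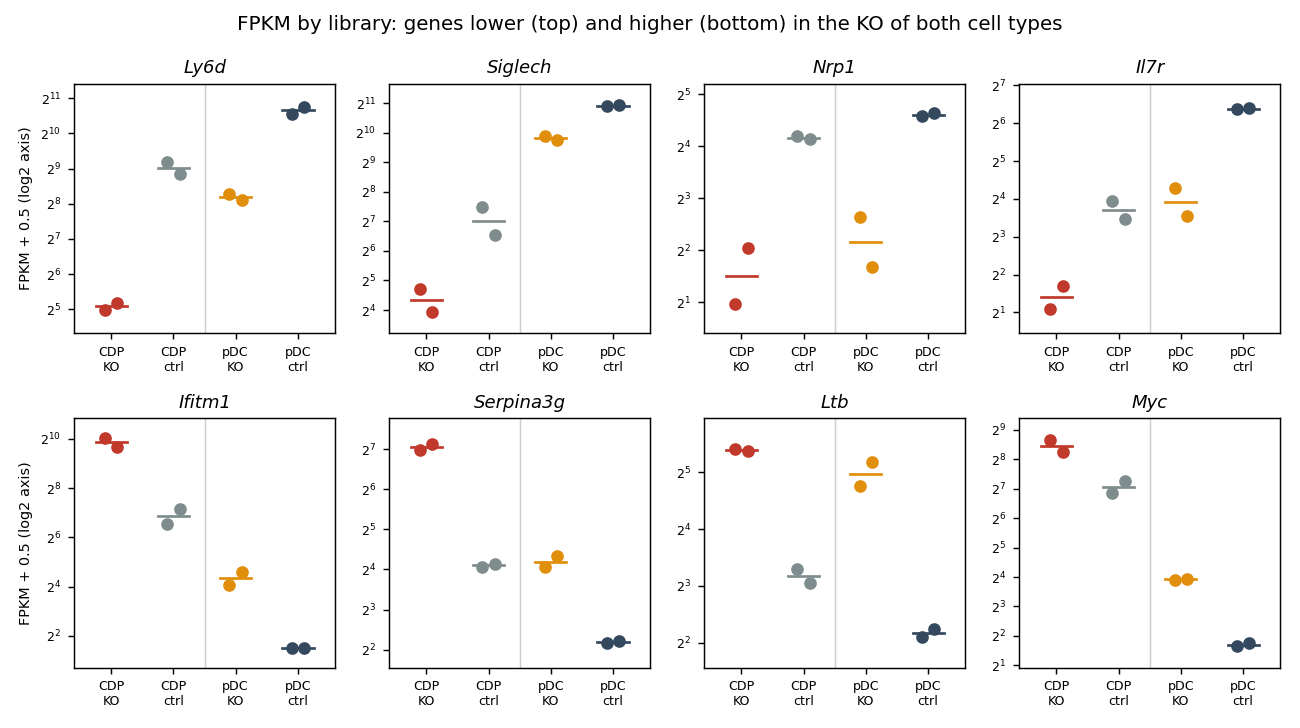
FPKM + 0.5 on a log2 axis for 4 genes lower (top row) and 4 genes higher (bottom row) after HDAC3 loss in both cell types, 1 point per library, with the mean of the log2 values as a line. From left to right stand HDAC3-deficient CDPs, control CDPs, HDAC3-deficient pDCs and control pDCs, and *Ly6d* is at 31.3 and 36.0 FPKM in HDAC3-deficient CDPs against 577 and 460 FPKM in control CDPs.

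Primary granule genes are made by early granulocyte progenitors. Of 15 tested genes, 11 lay above and 0 below both controls in CDPs (14 above and 0 below without HDAC3-deficient CDP library 2), and 8 rose and 1 fell in pDCs. Among all tested genes 14.5% lay above and 28.7% below in CDPs, or 33.9% and 45.7% without that library. In pDCs 17.2% of all tested genes rose and 32.8% fell. The median responses of the list were 1.26 in CDPs and 0.81 in pDCs. Higher in both were 7 of its genes, beside 4.81% of all tested genes. The list is broader than its name, since it also holds *Gstm1*, *Nkg7* and *Plac8*, all of which were among the 7. *Ctsg*, which encodes cathepsin G, had 829 and 652 FPKM in HDAC3-deficient CDPs against 207 and 201 FPKM in control CDPs, and 58.7 and 42.4 FPKM in HDAC3-deficient pDCs against 22.1 and 28.6 FPKM in control pDCs (pDC response 0.97; limma, adjusted p = 0.00384). *Ms4a3*, which marks progenitors committed to granulocytes and monocytes, had 109 and 37.2 FPKM in HDAC3-deficient CDPs against 3.71 and 7.67 FPKM in control CDPs, and its pDC response of 0.90 passed (limma, adjusted p = 0.00813). *Mpo*, which encodes myeloperoxidase, had 1712 and 1413 FPKM in HDAC3-deficient CDPs against 567 and 742 FPKM in control CDPs. In pDCs it overlapped, at 106 and 73.9 FPKM in HDAC3-deficient against 76.3 and 78.8 FPKM in control libraries. *Kit*, the stem cell factor receptor, rose in pDCs to 8.52 and 9.77 FPKM against 1.77 and 1.54 FPKM in controls (response 2.16; limma, adjusted p = 8.98e-05), while CDPs had 34.3 and 16.7 FPKM in HDAC3-deficient and 17.7 and 21.2 FPKM in control libraries. *Ctsg*, *Mpo*, *Flt3*, *Nkg7* and *Plac8* were chosen after their values were seen.

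Of 22 interferon-stimulated genes, 9 were lower and 1 higher in both cell types, beside 16.7% and 4.81% of all tested genes. In CDPs 12 lay below and 1 above both controls, or 16 below and 3 above without HDAC3-deficient CDP library 2. Among all tested genes 28.7% lay below and 14.5% above in CDPs, or 45.7% and 33.9% without that library. In pDCs 14 of the 22 fell and 2 rose, where 32.8% and 17.2% of all tested genes did so. The medians of the list were −0.80 in CDPs and −0.72 in pDCs. The ER secretory and unfolded protein response list had 15 of 20 genes falling and 2 rising in pDCs, with a median of −0.41. In CDPs 2 of them lay below and 3 above both controls with a median of 0.14, or 5 below and 8 above with a median of 0.002 without HDAC3-deficient CDP library 2. With median ratio scaling 10 of these 20 fell and 2 rose in pDCs, beside 2650 and 2602 of all 11267 tested genes. Under the same scaling 12 of the 22 interferon-stimulated genes fell and 4 rose there. Of the 30 pDC genes, 18 then fell and 2 rose. Of 14 p53 target genes, 7 lay above and 1 below both controls in CDPs, or 11 above and 2 below without that library. In pDCs 3 rose and 4 fell, which is near the shares of all tested genes. The p53 list medians were 0.59 in CDPs and −0.15 in pDCs. A difference of responses was called for 0 interferon-stimulated and 0 ER genes (limma) and for *Cdkn1a* alone among the p53 targets.

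**Figure D5:**
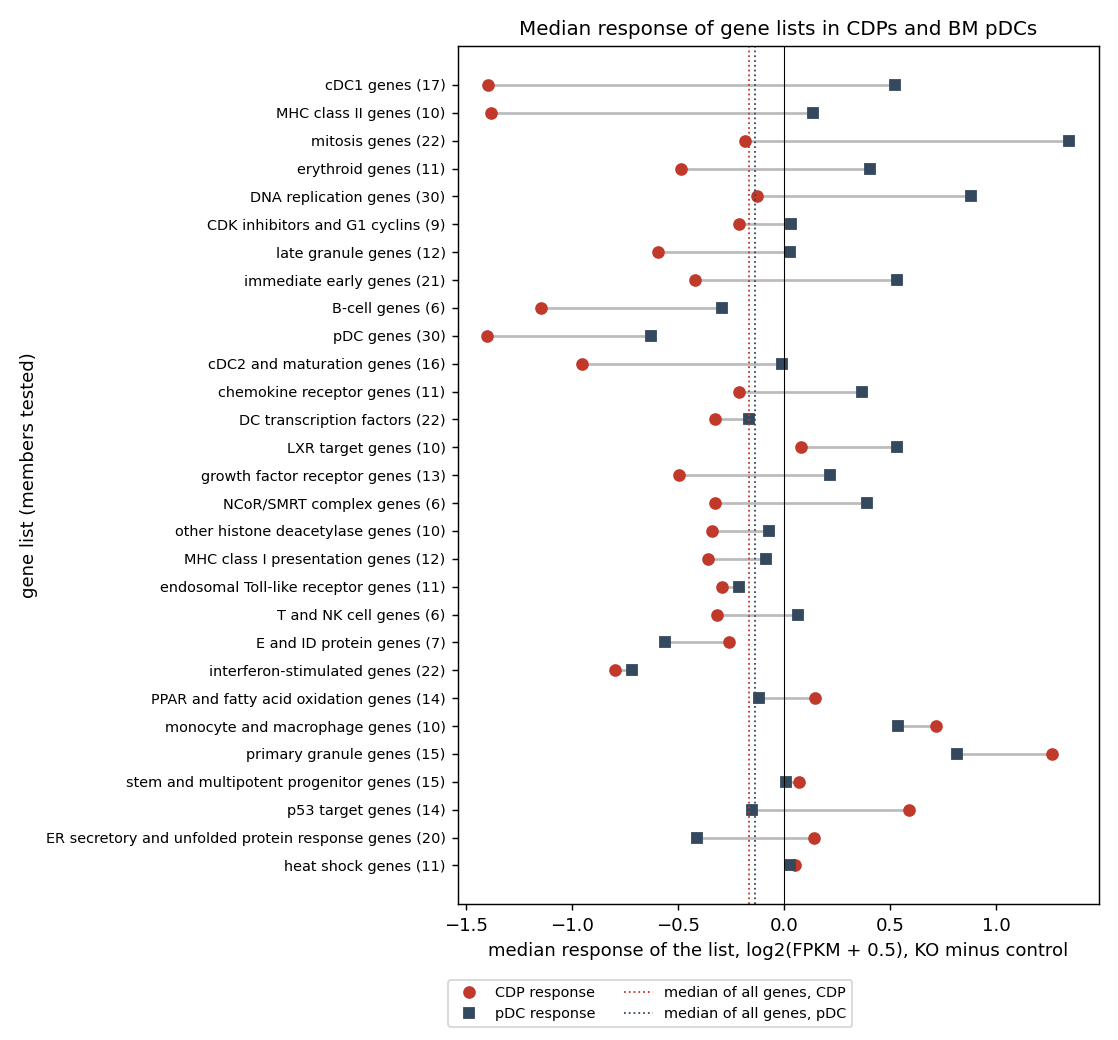
Median response to HDAC3 loss of each gene list with at least 6 tested members, as HDAC3-deficient minus control in log2(FPKM + 0.5), for CDPs (circles) and pDCs (squares), ordered by the median difference of responses, with the number of tested members in brackets and dotted lines at the medians of all genes tested, −0.17 in CDPs and −0.14 in pDCs. The cDC1 list lies at −1.40 in CDPs and 0.52 in pDCs, and the primary granule list at 1.26 and 0.81.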

How the data were processed

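RNA-seq of sorted mouse cells was analysed from the authors' tables, 1 for CD115-CDPs and 1 for BM pDCs. Per the labels, Bowtie2, RSEM and the mm10 build appear in the submitters' processing notes, with no versions given in the sources used here. The authors deposited FPKM for both cell types, and expected counts for pDCs, which were rounded and used only in alternatives. TPM and the authors' mean columns were not used, nor were the LMPP libraries of the series. The pDC libraries held 18117748 to 18462220 expected counts. The depth of the CDP libraries is unknown, which limits statements on low values there.

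The tables had 16821 (CDP) and 16896 (pDC) entries, of which 14473 shared a gene identifier and 14467 were in RefSeq's gene table. Genes with at least 1 FPKM in 2 libraries of either table were kept, 0.5 was added and log2 taken. limma 3.58.1 (R 4.3.3), with an intensity trend, was fitted to all 8 libraries for the difference of responses and to each table for its response, with Benjamini-Hochberg adjustment over all tested genes and a threshold of 0.05. All tests were two-sided. Scripts were tested on simulated data. Promoter windows came from RefSeq (GRCm38.p6).

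Among genes reaching 5 FPKM in a group of each table, the text could name the 10 largest of each alike and opposite class, the 10 largest called differences in each direction, up to 4 genes of each of 30 lists by the size of their difference, and *Hdac3*, *Batf3*, *Id2* and *Zbtb46*. Members and lists were chosen with earlier results of these data known. Alternatives were pseudocounts of 0.1 and 1, other filters, median ratio scaling, quantile normalization, a replicate block, no trend, array weights, leaving out each library, edgeR 4.0.16 and DESeq2 1.42.0 (pDCs only). Those chosen after seeing the data were crossed replicate numbers, lists without HDAC3-deficient CDP library 2, marker sums without a leading gene, and a minimum response of 1 for alike and opposite genes. Tables were read with pandas 2.3.3 and plotted with matplotlib 3.10.9.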

Additional observations from a re-analysis of the deposited data

Results flagged for a closer look

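The difference of responses was called (limma, adjusted p under 0.05) for 47 of the genes named above. Many of these genes were named for the size of this difference, so the count follows from the choice. Over all tested genes the share called was 1.45%, and the number of calls depended on single libraries, as given above. The values are CDP minus pDC in log2(FPKM + 0.5).

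The CDP response was the more negative for 35 genes. The difference was −6.12 for *Aif1*, −5.94 for *Batf3*, −5.84 for *Cd22*, −5.84 for *Ifi205*, −5.42 for *L1cam*, −5.13 for *Lgals3* and −5.07 for *Cd300lg*. Next came values of −5.00 for *Tmem51*, −4.90 for *Id2*, −4.70 for *Plbd1*, −4.48 for *Palld*, −4.24 for *Pak1*, −4.22 for *Itgam* and −3.82 for *Zfp366*. Middle values were −3.35 for *Rab7b*, −3.22 for *Egr1*, −3.15 for *H2-DMb2*, −3.15 for *H2-Ob*, −2.97 for *Ccr7*, −2.95 for *Clec9a* and −2.67 for *Cx3cr1*. Smaller values were −2.18 for *Ccnd2*, −2.05 for *Upb1*, −1.99 for *H2-Aa*, −1.90 for *Lig1*, −1.89 for *Birc5*, −1.89 for *Ccnb2* and −1.82 for *H2-Eb1*. Closest to 0 were −1.82 for *H2-Ab1*, −1.81 for *Cdkn1a*, −1.77 for *Ccna2*, −1.73 for *Aurkb*, −1.70 for *Mcm10*, −1.55 for *Tpx2* and −1.53 for *Mcm5*.

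The CDP response was the more positive for 12 genes. The difference reached 3.32 for *Lat*, 3.10 for *Mgst1*, 3.08 for *Slco3a1*, 2.86 for *Mcpt8*, 2.54 for *Laptm4b* and 1.96 for *Tsc22d3*. Lower values were 1.83 for *Clec2i*, 1.68 for *Gnl3*, 1.66 for *Glul*, 1.54 for *Srm*, 1.5 for *Spns3* and 1.25 for *Hspe1*. No explanation was tested for any of them.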

How the results depend on the processing

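The CDP depth is unknown, and log2(FPKM + 0.5) differed by a median of 0.673 between the HDAC3-deficient CDP libraries, against 0.146 between the HDAC3-deficient pDC libraries. Of 163 called differences of responses, quantile normalization gave 276, and leaving out 1 library gave 0 to 6197. CDP calls, 0 at first, numbered 2 with quantile normalization and 0 to 4596 with 1 library left out (4596 and 538 without HDAC3-deficient CDP library 1 or 2). The 5630 pDC calls ranged from 2346 (without control library 2; 2660 without control library 1) to 6320, and DESeq2 gave 4432. Genes moving alike, 2427, numbered 1580 at a minimum of 5 FPKM in both tables, 216 when both responses reached 1, and 2623 to 4401 with 1 library left out. Genes moving in opposite directions, 1442, numbered 94 when both responses reached 1, and 1607 to 3654 with 1 library left out. The cause of these shifts was not tested. The other pseudocounts, filters and fits gave 149 to 235 differences, but not always for the same genes. Of the 163 genes, array weights per group called 90 again and the fit without a trend 129. Signs changed for the pDC response of *Mpo* (−0.07 and 0.45 without HDAC3-deficient pDC library 1 or 2) and for the CDP responses of *Kit* (−0.20 and 0.81 without HDAC3-deficient CDP library 1 or 2) and *Flt3* (−0.60 and 0.01 without the same libraries).

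With the replicate block, 1 difference of responses, 211 CDP responses and 4856 pDC responses were called. Replicate numbers are only shared names here, and deviations of same-numbered libraries correlated at 0.22 in CDPs and −0.19 in pDCs over 2 pairs each. With crossed numbers, 5797 pDC responses were called.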

Other observations

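Further lists are given as counts of tested genes, beside 14.5% above and 28.7% below both controls in CDPs and 17.2% rising and 32.8% falling in pDCs among all genes tested. Without HDAC3-deficient CDP library 2 the shares in CDPs were 33.9% above and 45.7% below.

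Of 16 cDC2 and maturation genes, 3 lay above and 9 below in CDPs (6 and 9 without that library), and 5 rose and 6 fell in pDCs. The list of 22 DC transcription factor genes also holds the receptor gene *Flt3*. Of its members, 2 lay above and 11 below in CDPs (7 and 11 without that library). In pDCs 6 of them rose and 9 fell, or 8 and 4 with median ratio scaling. For 11 chemokine receptor genes, 2 lay above and 4 below in CDPs (5 and 6 without that library), and 6 rose and 2 fell in pDCs. The list for the sterol-sensing receptor LXR had 10 tested genes, namely target genes and the receptor gene *Nr1h2*. Of these, 2 lay above and 2 below in CDPs (6 and 2 without that library), and 5 rose and 0 fell in pDCs. Among 11 heat shock genes, 5 lay above and 3 below in CDPs (6 and 4 without that library), and 5 rose and 4 fell in pDCs. For 10 monocyte and macrophage genes, 6 lay above and 3 below in CDPs (6 and 4 without that library), and 5 rose and 2 fell in pDCs. Of 12 MHC class I presentation genes, 0 lay above and 7 below in CDPs (2 and 7 without that library), and 4 rose and 4 fell in pDCs. The median CDP response of the LXR list was 0.08, and 0.58 without that library.

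The remaining lists are given by their median difference of responses, CDP minus pDC, first with all libraries and then without HDAC3-deficient CDP library 2. Over all genes tested these were −0.04 and 0.07. E and ID protein genes, listed together with *Cbfa2t2* and *Cbfa2t3* (7 tested), had 0.01 and 0.15. CDK inhibitors and G1 cyclins (9 tested) had −1.07 and −1.61. PPAR and fatty acid oxidation genes (14 tested) had 0.10 and 0.25. NCoR/SMRT complex genes (6 tested) had −0.46 and −0.37. Histone deacetylases besides HDAC3 (10 tested) had −0.30 and 0.40. Growth factor receptor genes (13 tested) had −0.51 and −0.14. Endosomal Toll-like receptor genes, listed together with partners such as *Myd88* and *Unc93b1* (11 tested), had −0.27 and 0.17. Stem and multipotent progenitor genes (15 tested) had 0.29 and −0.01. Late granule genes (12 tested) had −1.02 and −0.15. B-cell genes (6 tested) had −0.92 and −0.38. T and NK cell genes (6 tested) had −0.07 and −0.10. Erythroid genes (11 tested) had −1.34 and −0.91. Megakaryocyte genes (4 tested) had −0.83 and −0.11. The sign thus turned for the histone deacetylase, Toll-like receptor and stem and progenitor lists.

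Across the 11267 genes, the difference of control levels between the cell types (CDP minus pDC, control library 1 of each) correlated at 0.30 with the pDC response computed from control library 2. The same difference correlated at 0.08 with the CDP response and at −0.14 with the difference of responses. These are descriptions over genes from separately normalized tables, with no test.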
